A study of Mus musculus with 50 samples.

Results

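Livers of old mice that had received a treatment labelled 3C were compared with livers of old mice that had received DMSO, the solvent. These were 8 of the 50 samples of the series, taken by their titles, with 4 RNA-seq libraries labelled as treated old mice and 4 labelled as control old mice. All 8 libraries came from livers of C57BL/6 mice aged 20 to 21 months, and total RNA was sequenced. What 3C is, and its dose, route and duration, are not given in the sources used here. The study's methods name female mice, while the labels of these livers give no sex. The same pair of treatments was also given for kidney of old mice aged 20 to 21 months (4 and 4 libraries). Untreated livers of young mice aged 2.5 months and old mice aged 23 to 25 months (4 and 4 libraries) form the age comparison.

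As background, hepatocytes carry out most of the metabolism of the liver. They make fatty acids and cholesterol under the transcription factors SREBP-1 and SREBP-2, and burn fatty acids under the nuclear receptor PPAR alpha. They also secrete plasma proteins, some of which climb steeply in an acute phase response. A clock of transcription factors, with BMAL1 (Arntl) and CLOCK at its centre and PER, CRY and REV-ERB proteins feeding back on them, runs in nearly every cell and drives many liver genes through the day. A liver taken at another hour therefore differs in these genes. In whole tissue, fewer cells of a type and less RNA per cell cannot be told apart.

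The 8 libraries held 17.0 to 20.4 M (mega) counts in genes, with 10.6% to 13.7% of reads outside genes, and neither measure separated the groups (exact permutation test over all 70 splits, two-sided p of 1 and 0.886). Values below are CPM (read counts scaled to 1 M reads per library, after TMM), so that 1 CPM was 16.2 to 20.4 reads. Fold changes are log2, 3C over DMSO, from edgeR's quasi-likelihood fit with its standard error (SE), and n = 4 libraries per group throughout. Hepatocyte markers were abundant in every library, with a summed level of 116800 to 177400 CPM. Acinar pancreas markers summed to 9.54 to 17.9 CPM with DMSO and to 10.5 to 14.2 CPM with 3C, and 1 of 12 (Cela1, 0.046) passed the filter on low counts. Red cell markers summed to 9.59 to 16.3 CPM and 9.31 to 18 CPM.

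Libraries that stood apart are described first. The clock genes placed 3C replicate 1 away from all other livers. Of 19 clock genes, 12 were higher and 5 lower in it than in each of the other 7 livers. Arntl, the core activator, was at 1.27 CPM there and at 22.4 to 35.6 CPM in the other 7. Npas2, a relative of Clock, stood at 0.354 CPM against 8.99 to 28.9 CPM. Both activators were thus low in this liver, and Dbp, Tef and Ciart were high. Dbp, an output transcription factor, was at 134 CPM against 0.185 to 3.25 CPM elsewhere. Its relative Tef was at 282 CPM against 38.2 to 64.8 CPM. Ciart, a repressor of the clock, was at 19 CPM against 0.12 to 1.18 CPM.

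The PER and REV-ERB genes shared this pattern. Per3 was at 58.6 CPM against 2.32 to 7.61 CPM in the other livers. Per1 reached 129 CPM and Per2 62.4 CPM, above ranges of 22.6 to 59.6 and 10.4 to 39.8 CPM. Nr1d1, which encodes REV-ERB alpha, was at 144 CPM and Nr1d2 at 114 CPM, against 1.71 to 67.3 and 8.54 to 47 CPM. Cry2, Bhlhe40, Bhlhe41 and Hlf were also highest in this liver (54.3, 193, 3.95 and 69.4 CPM). Clock, Cry1 and Nfil3 were lowest in it (22.1, 6.83 and 19.8 CPM). Rora (48.8 CPM) lay within the range of the others. DMSO replicate 1 differed from the rest in another way, with Nr1d1 at 1.71 CPM, Nr1d2 at 8.54 CPM and Cry1 at 53.4 CPM.

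The old kidney library carrying the same treatment and number stood apart alike. In it 11 of the 19 clock genes were above and 4 below the other 7 kidneys, and 15 lay on the same outer side in both tissues. Arntl was at 2.73 CPM against 19.7 to 42.5 CPM, and Dbp at 138 CPM against 2.4 to 19.4 CPM. Kidney DMSO replicate 1 held Nr1d1 at 14.6 CPM, the lowest of the kidneys, and Cry1 at 21.3 CPM, the highest. Whether a liver and a kidney with the same number came from the same mouse is not stated. The hour at which tissues were taken is not given in the sources used here.

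**Figure D1:**
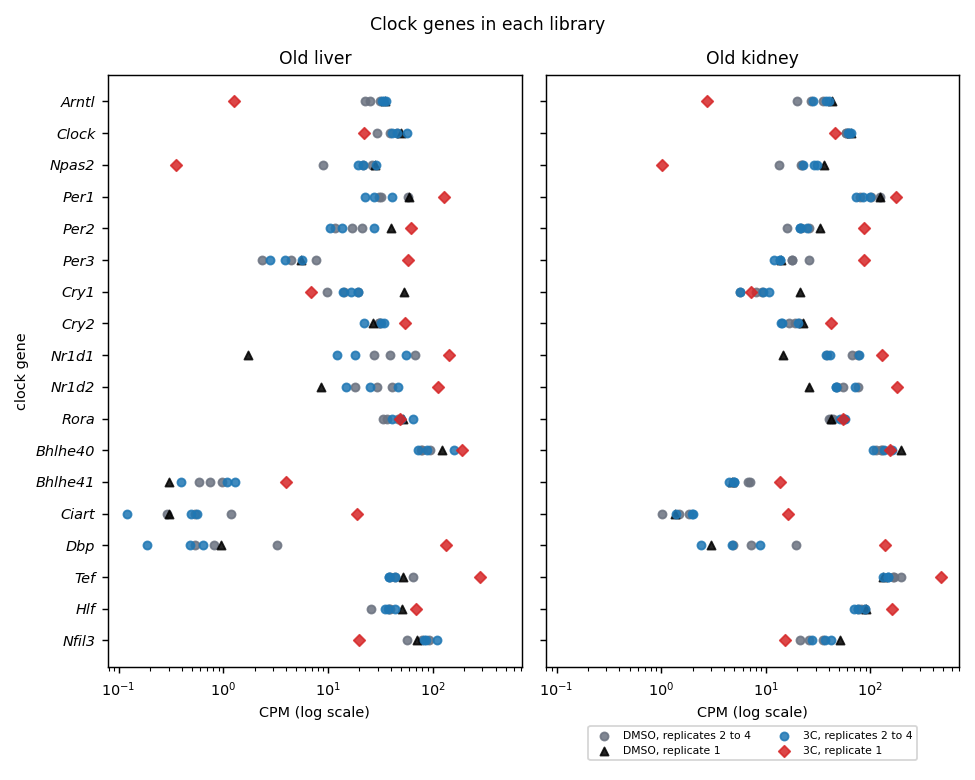
CPM (log axis) of 18 clock genes in each of the 8 old livers (left) and 8 old kidneys (right), 1 point per library. Replicate 1 with 3C (diamonds) lay apart from the other livers, as with Arntl at 1.27 CPM and Dbp at 134 CPM, and replicate 1 with DMSO (triangles) was lowest in Nr1d1.

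Sequences upstream of genes that set these livers apart, or that carry large differences between the groups, are shown from RefSeq (GRCm38.p6), read from 250 bases before the first listed start up to it. Capitals mark matches, on either strand, to CACGTG (E-box, bound by BMAL1 and CLOCK), to TTANGTAA (D-box, bound by DBP and its relatives) or to GAANNTTC (inverted units of the heat shock element). The first 3 are clock genes that were high in 3C replicate 1, and the last pair are the inducible Hsp70 genes described below.
Ciart, chr3:95882229-95882478, minus strand, E-box: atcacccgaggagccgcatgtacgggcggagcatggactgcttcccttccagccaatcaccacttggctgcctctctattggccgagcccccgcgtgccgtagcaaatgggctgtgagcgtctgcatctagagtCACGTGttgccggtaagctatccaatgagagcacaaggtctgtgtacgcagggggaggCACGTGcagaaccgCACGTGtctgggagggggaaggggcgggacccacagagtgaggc
Tef, chr15:81802423-81802672, plus strand, E-box: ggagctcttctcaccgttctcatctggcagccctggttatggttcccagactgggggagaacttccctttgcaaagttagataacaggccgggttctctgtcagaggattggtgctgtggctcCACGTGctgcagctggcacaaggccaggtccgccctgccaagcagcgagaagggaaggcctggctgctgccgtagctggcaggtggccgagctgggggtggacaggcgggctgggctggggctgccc
Per3, chr4:151044666-151044915, minus strand, D-box: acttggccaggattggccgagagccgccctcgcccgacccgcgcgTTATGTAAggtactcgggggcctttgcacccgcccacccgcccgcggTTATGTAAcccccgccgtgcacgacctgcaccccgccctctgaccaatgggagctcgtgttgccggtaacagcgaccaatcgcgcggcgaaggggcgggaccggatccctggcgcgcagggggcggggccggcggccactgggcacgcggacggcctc
Hspa1b, chr17:34959239-34959488, minus strand, heat shock units: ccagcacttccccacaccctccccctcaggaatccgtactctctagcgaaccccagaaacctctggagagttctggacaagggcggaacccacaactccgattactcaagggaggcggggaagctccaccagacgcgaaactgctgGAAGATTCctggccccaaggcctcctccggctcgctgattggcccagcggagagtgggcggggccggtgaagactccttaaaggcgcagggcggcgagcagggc
Hspa1a, chr17:34972157-34972406, minus strand, heat shock units: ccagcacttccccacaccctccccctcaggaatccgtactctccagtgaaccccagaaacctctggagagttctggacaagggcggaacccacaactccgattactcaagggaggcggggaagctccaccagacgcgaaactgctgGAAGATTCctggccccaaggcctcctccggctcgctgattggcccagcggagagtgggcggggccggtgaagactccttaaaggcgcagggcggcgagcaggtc
Ciart held 3 E-boxes in this window, Tef 1, and Per3 2 D-boxes. Of the 16 clock genes with a listed promoter, 5 held an E-box (Per1, Cry1, Bhlhe41, Ciart and Tef), beside 6.05% of all 27025 promoters of the same length. The D-box letters were found in 1 of the 16 and in 2.11% of all promoters. The Hspa1a and Hspa1b windows were identical at 247 of 250 bases. GAANNTTC was present in 5 of 15 heat shock genes with a listed promoter (Hspa1a, Hspa1b, Dnaja1, Hspb1 and Hspe1), against 6.78% of all promoters. A sterol-type element, TCACNCCAC, was found in 1 of 17 cholesterol genes (Hmgcs1) and in 1.04% of all promoters. These matches only describe the letters.

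A second liver, 3C replicate 2, stood apart in acute phase proteins, which hepatocytes secrete in inflammation. Of 26 such genes 18 were highest in that liver. Saa2, a serum amyloid A, was at 52.6, 107, 92.9 and 119 CPM in DMSO replicates 1 to 4 and 175, 7507, 22.5 and 32.5 CPM in 3C replicates 1 to 4. Saa1 was at 116, 134, 131 and 325 CPM in DMSO replicates 1 to 4 and 354, 6967, 33 and 78.5 CPM in 3C replicates 1 to 4. Only replicate 2 was far above the rest, and the other 3C livers spanned the DMSO range on both sides. Lcn2, a siderophore-binding protein, was at 2887 CPM and Hp (haptoglobin) at 19260 CPM in this liver, the latter against 3711, 4633, 4396 and 3974 CPM with DMSO. The list's median log2 fold was 0.28 over its 26 members, with 23 above 0, and it was -0.047 without 3C replicate 2. Saa1 had a log2 fold of 3.39 ± 1.33 (SE) with all livers and of -0.19 without this one, and Saa2 4.38 ± 1.55 (SE) and -0.28. Kidney 3C replicate 2 also held the highest Hp, at 34.5 CPM against 2.97 to 9.89 CPM in the other kidneys.

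Across all genes the difference between 3C and DMSO was weak. Of 13042 genes tested, 0 passed an adjusted p of 0.05 (0%), and the smallest adjusted p was 0.677 (edgeR quasi-likelihood test, Benjamini-Hochberg adjustment). At an unadjusted p under 0.05, 249 genes were higher (1.91%) and 187 lower (1.43%). The groups did not overlap in 144 genes that were higher (1.10%) and 145 that were lower (1.11%). Neither pair of counts exceeded what 4 against 4 libraries without any difference would give on average. Both held, with the unadjusted p under 0.05 also after leaving out each liver in turn, for 49 higher genes (0.376%) and 37 lower genes (0.284%), a definition chosen after the values were seen. The median log2 fold of all genes was -0.0014, and the median SE 0.182. Without 3C replicate 1, 0 of 13160 genes passed the adjusted threshold and 535 had an unadjusted p under 0.05 (4.07%). DESeq2 called 6 genes at an adjusted p under 0.05 (0.0460%), which are marked as such below. No gene is therefore said to have changed by the edgeR test, and the values that follow describe the 20 named genes with the smallest p, 16 higher and 4 lower with 3C.

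The genes of this group that act in lipid metabolism are given first. Srebf1 (chromosome 11, 60199084 to 60224186), which encodes SREBP-1, the activator of fatty acid synthesis, was at 496, 488, 469 and 463 CPM in DMSO replicates 1 to 4 and 327, 293, 288 and 286 CPM in 3C replicates 1 to 4. Every 3C liver was below every DMSO liver, with the treated replicate 1 nearest to them. Its log2 fold was -0.68 ± 0.11 (SE) (edgeR adjusted p = 0.677, DESeq2 adjusted p = 2.18e-07), and it kept to -0.73 to -0.66 when any liver was left out. Mid1ip1 (chromosome X, 10717365 to 10719702), a partner of acetyl-CoA carboxylase in fatty acid synthesis, was at 90.8, 93.3, 74.7 and 82.7 CPM in DMSO replicates 1 to 4 and 62.5, 57.5, 55.3 and 59.3 CPM in 3C replicates 1 to 4. The groups did not overlap here either, with a log2 fold of -0.54 ± 0.11 (SE) (DESeq2 adjusted p = 0.0208). The reads of Srebf1 and Rai1, and those of Mid1ip1 and Gm14493, overlap on opposite strands and were counted without strand, so they cannot be told apart where the exons meet.

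Ppara (chromosome 15, 85734910 to 85806851), the receptor that switches on fatty acid oxidation, was at 139, 137, 119.8 and 136 CPM in DMSO replicates 1 to 4 and 244, 173, 209.5 and 224 CPM in 3C replicates 1 to 4. The 4 treated livers were all above the 4 controls, and 3C replicate 2 was nearest to them. The log2 fold was 0.68 ± 0.13 (SE) (DESeq2 adjusted p = 0.00324) and 0.6 without 3C replicate 1. Slc22a5, the carnitine carrier that supplies fatty acid oxidation, was at 22.5, 20.6, 16.9 and 23.1 CPM in DMSO replicates 1 to 4 and 29.8, 25.6, 33.8 and 39.7 CPM in 3C replicates 1 to 4. Its log2 fold was 0.63 ± 0.16 (SE), again without overlap.

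Several other genes were higher with 3C without overlap. Grpel2, a cofactor of mitochondrial Hsp70, was at 40.3, 44.5, 41.1 and 39.2 CPM in DMSO replicates 1 to 4 and 67.1, 59.8, 66.5 and 59.5 CPM in 3C replicates 1 to 4. Its log2 fold was 0.61 ± 0.11 (SE) (DESeq2 adjusted p = 0.000536). Ccn1, a secreted matrix protein and YAP target, was at 8.03, 11.2, 12.8 and 8.5 CPM in DMSO replicates 1 to 4 and 27.5, 22.6, 18.4 and 15.6 CPM in 3C replicates 1 to 4. Its log2 fold was 1.05 ± 0.21 (SE) (DESeq2 adjusted p = 0.00785), and the highest value was that of 3C replicate 1. Mroh6, whose role is not well known, was at 10.4, 9.9, 5.4 and 14.2 CPM in DMSO replicates 1 to 4 and 35.1, 35.8, 16 and 22 CPM in 3C replicates 1 to 4, a log2 fold of 1.45 ± 0.31 (SE) (DESeq2 adjusted p = 0.00523). Ccn1 and Mroh6 were the genes past both the DESeq2 threshold and a fold of 2.

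Amotl2, an angiomotin that restrains YAP and is itself one of its targets, was at 33.4, 30.9, 30 and 37.7 CPM in DMSO replicates 1 to 4 and 49, 41.5, 46.3 and 44.5 CPM in 3C replicates 1 to 4, with a log2 fold of 0.46 ± 0.12 (SE). Tbx3, a transcription factor of hepatocytes around the central vein, was at 32.6, 39, 39.8 and 33.8 CPM in DMSO replicates 1 to 4 and 53.9, 47.3, 52.9 and 57.3 CPM in 3C replicates 1 to 4, with a log2 fold of 0.54 ± 0.12 (SE). Hykk, a hydroxylysine kinase, was at 34.8, 54.4, 41.4 and 61.8 CPM in DMSO replicates 1 to 4 and 78.9, 76.6, 92.6 and 79 CPM in 3C replicates 1 to 4, with a log2 fold of 0.77 ± 0.17 (SE). In all 3 genes the groups did not overlap, and leaving out any liver gave 0.42 to 0.53, 0.49 to 0.59 and 0.64 to 0.91. The exons of Tbx3 share sequence with the antisense gene Tbx3os1.

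Lower values with 3C were less frequent among these genes. Acap1, a GTPase-activating protein that is abundant in lymphocytes, was at 9.04, 7.45, 8.19 and 8.02 CPM in DMSO replicates 1 to 4 and 4.86, 5.3, 5.56 and 5.27 CPM in 3C replicates 1 to 4, a log2 fold of -0.64 ± 0.15 (SE). Lars2, a mitochondrial leucyl-tRNA synthetase, was at 400.4, 838, 424 and 1584 CPM in DMSO replicates 1 to 4 and 238, 166, 328 and 241 CPM in 3C replicates 1 to 4. It was lower in each 3C liver, with a log2 fold of -1.74 ± 0.4 (SE), and the DMSO livers spread over a wide range. Rn45s, the entry for ribosomal RNA, was at 4929, 6451, 3296 and 15720 CPM with DMSO and 2302, 2506, 4712 and 2884 CPM with 3C. DMSO replicate 4 was highest in both, and the part that ribosomal RNA has in the Lars2 values was not tested.

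The remaining genes of this group were all higher with 3C. Hspa1b is given with the heat shock proteins. Ahsa2 (an Hsp90 activator relative, 0.62 ± 0.16 (SE)), Nr6a1 (an orphan nuclear receptor, 0.53 ± 0.14 (SE)), Foxp2 (a transcription factor, 0.85 ± 0.22 (SE)), Tenm3 (a cell adhesion protein, 0.41 ± 0.11 (SE)) and N4bp2 (a nuclease-domain protein, 0.94 ± 0.25 (SE)) did not overlap between the groups. Rab30, a GTPase of the Golgi, overlapped at 3C replicate 2 (8.38, 7.34, 9.52 and 7.8 CPM in DMSO replicates 1 to 4 and 14.1, 8.98, 19.5 and 16.8 CPM in 3C replicates 1 to 4). Ppp4r4, a subunit of protein phosphatase 4, overlapped at 3C replicate 1 (21.3, 31.5, 27.2 and 20.6 CPM in DMSO replicates 1 to 4 and 29.2, 41, 42.3 and 46.9 CPM in 3C replicates 1 to 4).

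**Figure D2:**
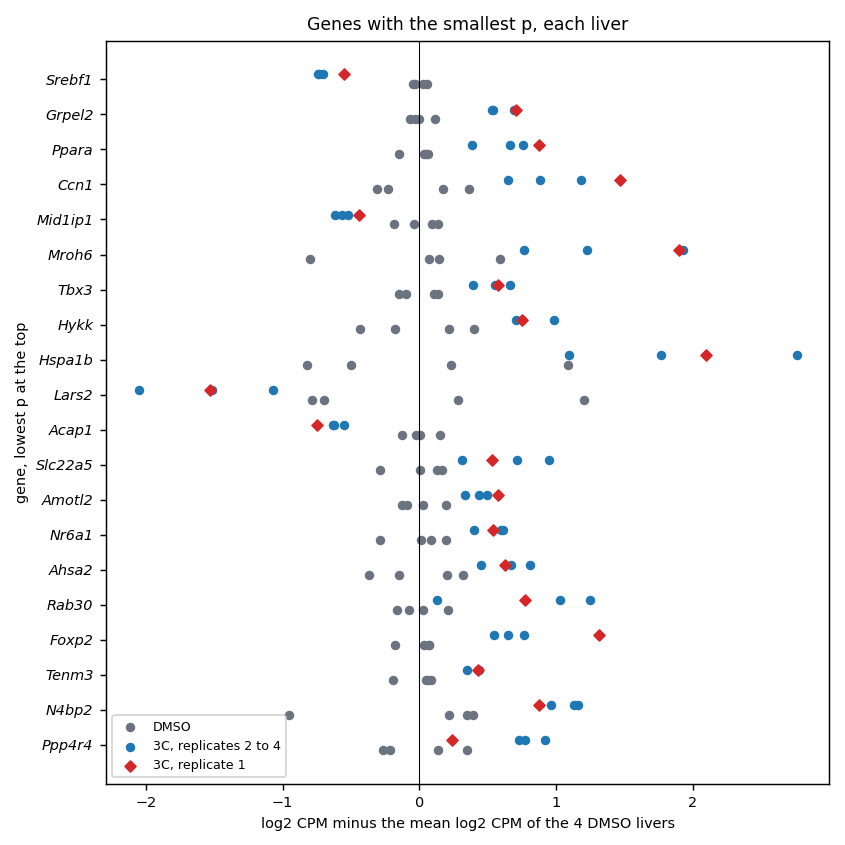
Log2 CPM of each liver relative to the mean of the 4 DMSO livers (x axis), for the 20 named genes with the smallest p (y axis). In 18 of the 20 genes the 4 livers with 3C, with replicate 1 as a diamond, did not overlap the 4 with DMSO. Rab30 and Ppp4r4 overlapped. The genes were picked by p in these same livers, so little overlap follows from the choice. Of all genes, 1.10% were higher and 1.11% lower without overlap.

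Lists of genes with a shared function are described by their members, since no list was tested. Every list had 0 members past the adjusted threshold by edgeR. The cholesterol synthesis, acute phase and clock lists had the highest medians, all at 0.28. Cholesterol synthesis is run by SREBP-2 targets. All 25 of its 25 genes had a log2 fold above 0, with a median of 0.28, beside 49.7% above 0 and a median of -0.0014 for all genes. The median was 0.38 without 3C replicate 1 and 0.15 to 0.38 when each liver was left out in turn. An unadjusted p under 0.05 was found for 5 of the 25, all higher, beside 1.91% of all genes. Stard4, a sterol carrier, was at 82.7, 108, 81.3 and 100.1 CPM in DMSO replicates 1 to 4 and 145, 111, 119 and 132 CPM in 3C replicates 1 to 4, and Hsd17b7, an enzyme of the pathway, at 36.2, 57.3, 37.3 and 58.3 CPM in DMSO replicates 1 to 4 and 63, 63.4, 67.1 and 81.9 CPM in 3C replicates 1 to 4. In both the groups did not overlap, and the log2 folds were 0.45 ± 0.14 (SE) and 0.54 ± 0.18 (SE). Srebf2 itself had a log2 fold of 0.032 ± 0.15 (SE). The summed level was 4059, 5645, 5028 and 5095 CPM with DMSO and 5035, 7084, 5466 and 5735 CPM with 3C, so the groups overlapped in the sum.

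PPAR alpha targets and enzymes of fatty acid oxidation were above 0 in 36 of 38 genes. Their median log2 fold was 0.24, 0.29 without 3C replicate 1 and 0.12 to 0.32 with each liver left out. There were 8 with an unadjusted p under 0.05, all higher, beside 1.91% of all genes. The groups overlapped in the summed level, at 8111 to 12110 CPM with DMSO and 10590 to 14180 CPM with 3C. Cpt1a, which brings fatty acids into mitochondria, was at 153, 185, 160.3 and 173 CPM in DMSO replicates 1 to 4 and 329, 201, 205 and 212 CPM in 3C replicates 1 to 4, without overlap. Angptl4, a secreted lipase inhibitor, was at 78.7, 67, 85.5 and 128 CPM in DMSO replicates 1 to 4 and 125, 134, 173 and 140.3 CPM in 3C replicates 1 to 4, where 1 DMSO liver reached the treated range. Fgf21, a fasting hormone at a low level here, was at 1.96, 0.372, 0.639 and 1.08 CPM in DMSO replicates 1 to 4 and 2.02, 1.28, 2.16 and 4.19 CPM in 3C replicates 1 to 4. Plin2, a lipid droplet coat protein, had a log2 fold of 0.48 ± 0.19 (SE), Creb3l3 0.45 ± 0.15 (SE) and Cyp4a32 0.85 ± 0.28 (SE), with overlap in each. The lipid droplet list had a median of 0.062 (11 of 19 above 0), 0.21 without 3C replicate 1 and -0.0017 to 0.21 with each liver left out, with Plin4 at 0.69 ± 0.2 (SE), not overlapping, and Cidec at 0.73 ± 0.26 (SE).

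The lipogenesis list, Srebf1 included, had a median of -0.021 (-0.16 to 0.04 with each liver left out) with 14 of 24 below 0, and Srebf1 was its one member with an unadjusted p under 0.05. Its summed level was 14790, 12030, 10220 and 11980 CPM in DMSO replicates 1 to 4 and 9354, 9803, 15610 and 10390 CPM in 3C replicates 1 to 4, and 3C replicate 3 was the highest of all 8 livers. Fasn, the fatty acid synthase, was at 1322, 1430, 1039 and 1248 CPM in DMSO replicates 1 to 4 and 856, 886, 1161 and 1103 CPM in 3C replicates 1 to 4 (log2 fold -0.33 ± 0.16 (SE), overlapping). Apolipoprotein genes had a median of -0.05, with Pltp, a phospholipid transfer protein, at 0.32 ± 0.21 (SE). Bile acid genes were at 0.024, with Cyp7a1, the rate-limiting enzyme of bile acid synthesis, at 169.5, 154, 97.1 and 139 CPM in DMSO replicates 1 to 4 and 158, 112, 97.4 and 43.5 CPM in 3C replicates 1 to 4. Gluconeogenesis and insulin response genes had a median of 0.1, and of -0.063 without 3C replicate 1. Among them G6pc, which releases glucose, had a log2 fold of -0.51 ± 0.23 (SE) and Ppargc1a, a coactivator of the fasting response, 0.44 ± 0.21 (SE). The urea cycle and amino acid list was at -0.041, with Asl at -0.31 ± 0.14 (SE) and Hal at -0.32 ± 0.17 (SE).

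Heat shock proteins, the chaperones that respond to unfolded protein, were above 0 in 17 of 20 genes, with a median log2 fold of 0.23 (0.12 to 0.35 with each liver left out). There were 4 with an unadjusted p under 0.05, all higher, beside 1.91% of all genes. The groups overlapped in the summed level, at 3545 to 5850 CPM with DMSO and 5208 to 5834 CPM with 3C. Hspa1b, an inducible Hsp70, was at 55.6, 14.8, 18.6 and 30.8 CPM in DMSO replicates 1 to 4 and 112, 177, 56 and 89 CPM in 3C replicates 1 to 4. Its groups did not overlap, though DMSO replicate 1 and 3C replicate 3 nearly met, and the log2 fold was 1.85 ± 0.42 (SE). Hspa1a, the near-identical neighbour whose upstream sequence is shown above, was at 6.43, 1.54, 1.28 and 2.58 CPM in DMSO replicates 1 to 4 and 11.2, 13, 5.25 and 8.45 CPM in 3C replicates 1 to 4, with a log2 fold of 1.67 ± 0.46 (SE) and overlap. Because reads of the pair can be lost or misplaced, each gene's value is uncertain. Dnajb1, a cochaperone, was at 59.2, 30.6, 35.2 and 48 CPM in DMSO replicates 1 to 4 and 79.2, 79.3, 48.4 and 67.4 CPM in 3C replicates 1 to 4, and Hsph1 had a log2 fold of 0.63 ± 0.29 (SE). Cirbp, a cold-induced protein placed on the same list, was at -0.3 ± 0.18 (SE).

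Other stress lists lay nearer to 0. The unfolded protein response list was above 0 in 20 of 21 genes, with a median of 0.14 that ran from 0.00017 to 0.25 with each liver left out, and none had an unadjusted p under 0.05. Atf6 and Ern1, sensors of that response, had log2 folds of 0.24 ± 0.12 (SE) and 0.32 ± 0.2 (SE). The ATF4 list had a median of -0.028, with Gdf15, a stress hormone, at 12.6, 11.4, 21.4 and 11.7 CPM in DMSO replicates 1 to 4 and 22.1, 30.3, 23.8 and 19.6 CPM in 3C replicates 1 to 4. The NRF2 list was at -0.011, with Hmox1 at 0.43 ± 0.29 (SE) and Gsr at -0.2 ± 0.12 (SE). The p53 and senescence list was at -0.1 (-0.14 to -0.038 with each liver left out), and 3 of 20 had an unadjusted p under 0.05. Of these, Gdf15 at 0.75 ± 0.22 (SE) and Sesn1, a stress-induced inhibitor of mTORC1 signalling, at 0.29 ± 0.13 (SE) were higher, beside 1.91% of all genes, and Phlda3, a p53 target, at -0.84 ± 0.26 (SE) was lower, beside 1.43%. The groups did not overlap in Sesn1 and Phlda3. Metallothionein and iron genes were at 0.037, with the transferrin receptor Tfrc at -0.55 ± 0.18 (SE).

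**Figure D3:**
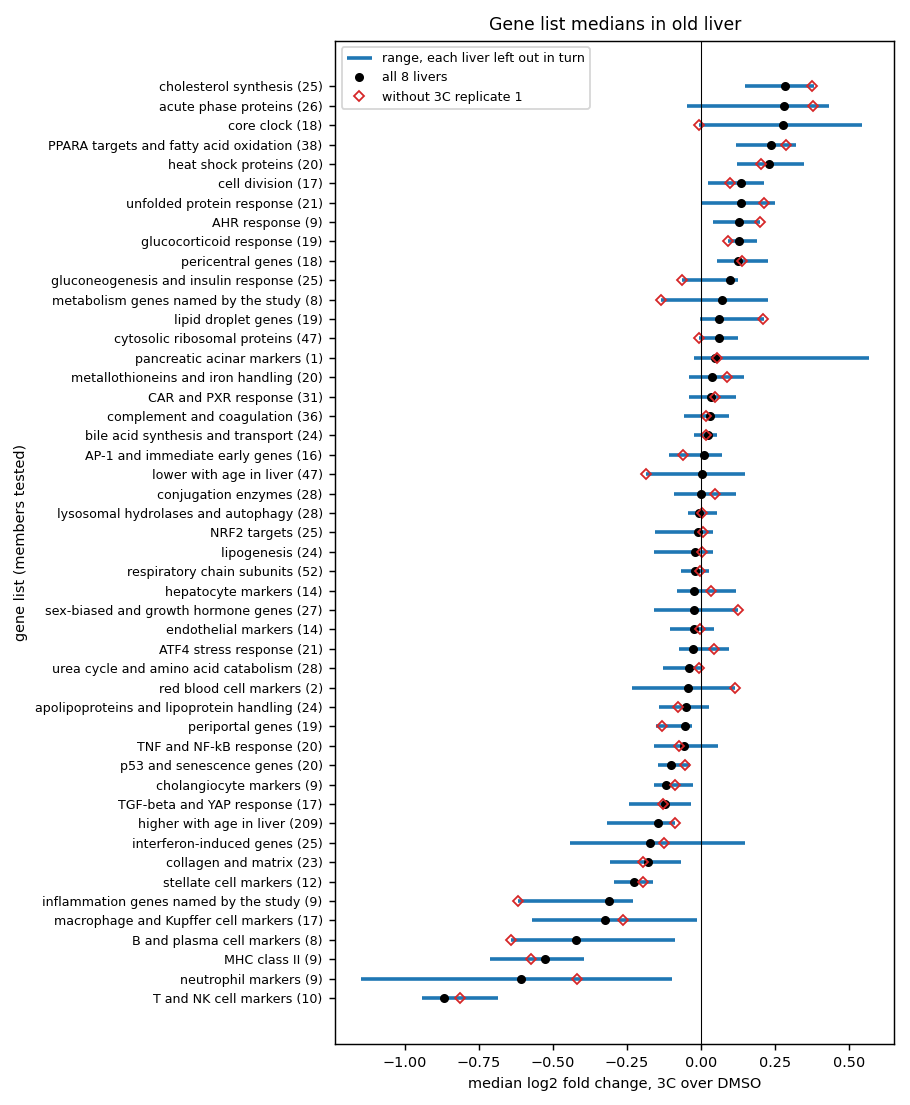
Median log2 fold change (3C over DMSO, x axis) of each gene list (y axis, with the number of members tested), as dots for all 8 livers, bars for the range with each liver left out, and diamonds without 3C replicate 1. T and NK markers (-0.87) lie at the lower end, and cholesterol synthesis, acute phase proteins and the clock list (each 0.28) at the upper end. The clock list moved from 0.28 to -0.008 without 3C replicate 1.

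Markers of immune cells made up the lists with the lowest medians. Of 16 T and NK cell markers listed, 14 were in the files and 10 passed the filter on low counts, which some passed through the higher DMSO livers. Without that filter all 14 had a log2 fold below 0, with a median of -0.81, and in 6 the groups did not overlap. An unadjusted p under 0.05 was found for 4 of them, beside 619 of all 18033 unfiltered genes in either direction. The share of unfiltered genes without overlap was not computed. The 10 that passed the filter had a median of -0.87, with 6 at an unadjusted p under 0.05 and 6 without overlap, beside 1.43% and 1.11% of all genes. With a mean of at least 1 CPM, 2 genes were left, with a median of -0.61. The summed level was 14.7, 13.6, 12.8 and 16.2 CPM in DMSO replicates 1 to 4 and 7.9, 7.76, 7.6 and 9.11 CPM in 3C replicates 1 to 4. The highest 3C liver was below the lowest DMSO liver, and the median of the 10 without 3C replicate 1 was -0.81. Cd3e, a subunit of the T cell receptor complex, was at 1.1, 1.22, 0.987 and 1.24 CPM in DMSO replicates 1 to 4 and 0.354, 0.638, 0.742 and 0.539 CPM in 3C replicates 1 to 4. Cd4, the helper cell coreceptor, was at 1.36, 0.639, 0.929 and 1.94 CPM in DMSO replicates 1 to 4 and 0.456, 0.491, 0.556 and 0.12 CPM in 3C replicates 1 to 4. Cd8a, of cytotoxic cells, was at 1.61, 0.852, 0.813 and 1.08 CPM in DMSO replicates 1 to 4 and 0.608, 0.638, 0.433 and 0.779 CPM in 3C replicates 1 to 4. Each of these was lower in every 3C liver, at levels below 2 CPM. The log2 folds were -1.0 ± 0.33 (SE), -1.56 ± 0.48 (SE) and -0.82 ± 0.35 (SE). Ccl5, a chemokine made by T and NK cells, was at 3.92, 4.63, 3.95 and 4.04 CPM in DMSO replicates 1 to 4 and 2.83, 3.29, 2.23 and 2.22 CPM in 3C replicates 1 to 4, also without overlap. The defining markers Cd3e, Cd3d and Cd3g were measured in every library.

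MHC class II genes, which present antigen, were below 0 in 9 of 9 genes, with a median log2 fold of -0.53 (-0.71 to -0.4 with each liver left out). H2-Ab1 was at 61.1, 106, 72.2 and 55.6 CPM in DMSO replicates 1 to 4 and 52, 65.4, 30.3 and 32.9 CPM in 3C replicates 1 to 4, and H2-Eb1 had a log2 fold of -0.65 ± 0.24 (SE). Cd74, the invariant chain, was at 127, 174, 129.8 and 95 CPM in DMSO replicates 1 to 4 and 108, 109, 56.1 and 76.3 CPM in 3C replicates 1 to 4. The groups overlapped, with 3C replicates 3 and 4 lowest. B and plasma cell markers were below 0 in 8 of 8 genes (median -0.42, -0.64 to -0.089 with each liver left out), with Cd79a at -0.65 ± 0.39 (SE) and Mzb1 at -0.6 ± 0.47 (SE). Macrophage and Kupffer cell markers had a median of -0.32 (-0.57 to -0.014), with 11 of 17 below 0 and none at an unadjusted p under 0.05. The 2 with the smallest p were Clec4f, a Kupffer cell lectin, at 223, 139, 105 and 87.5 CPM in DMSO replicates 1 to 4 and 66.6, 125, 69.8 and 97.5 CPM in 3C replicates 1 to 4, and Vsig4 at -0.59 ± 0.34 (SE), while Marco was at 0.59 ± 0.86 (SE) and Itgam at 0.42 ± 0.38 (SE). Neutrophil markers had a median of -0.61 (-1.15 to -0.099; 8 of 9 below 0), with Mmp9 at -0.78 ± 0.47 (SE) and Ltf at -0.79 ± 0.73 (SE).

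**Figure D4:**
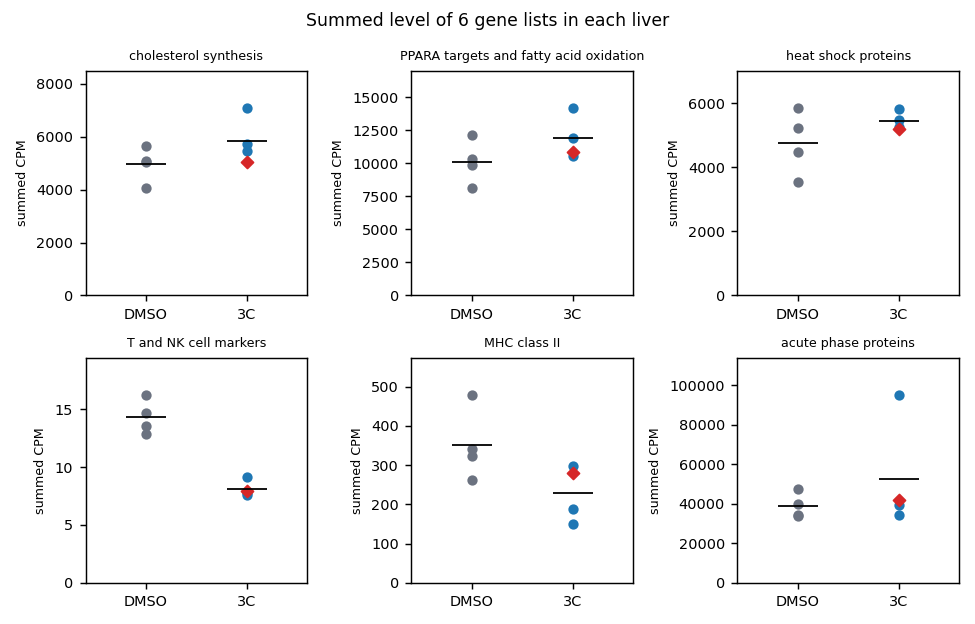
Summed CPM (y axis, from 0) of 6 gene lists in each DMSO and 3C liver, with the group means as lines and 3C replicate 1 as a diamond. T and NK cell markers were at 12.8 to 16.2 CPM with DMSO and at 7.6 to 9.11 CPM with 3C, and the acute phase sum was raised by 1 liver, 3C replicate 2.

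Signalling lists of inflammation were less uniform. The TNF and NF-kB list had a median of -0.059, with Cd83, a marker of activated antigen-presenting cells, at -0.52 ± 0.22 (SE) and no overlap. Interferon-induced genes were below 0 in 18 of 25 genes (median -0.17), but the median ran from -0.44 to 0.15 with each liver left out. Bst2 was at -0.27 ± 0.17 (SE) and Igtp at -0.39 ± 0.25 (SE). The 11 inflammation genes that the study named from its age comparison had a median of -0.31 over 9 tested, and of -0.62 without 3C replicate 1. Of the 9, 3 had an unadjusted p under 0.05, all lower, beside 1.43% of all genes. The 9 metabolism genes it named were at 0.071, and at -0.14 without 3C replicate 1, where Coq10b moved from 0.69 to -0.45. AP-1 and immediate early genes had a median of 0.0089. Jund, an AP-1 subunit, was at 176, 151, 183 and 133 CPM in DMSO replicates 1 to 4 and 144, 100.2, 108 and 127 CPM in 3C replicates 1 to 4 and Egr1, an early response factor, at 10.2, 29.1, 22.9 and 11.5 CPM in DMSO replicates 1 to 4 and 70.2, 13.1, 20.8 and 66.1 CPM in 3C replicates 1 to 4, both with overlap.

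Structural and proliferative genes followed. Collagen and matrix genes were below 0 in 21 of 23 genes, with a median of -0.18 (-0.31 to -0.069 with each liver left out) and none at an unadjusted p under 0.05. Bgn was at -0.29 ± 0.16 (SE) and Col6a2 at -0.46 ± 0.34 (SE). Stellate cell markers had a median of -0.23 (11 of 12 below 0), with Hand2 at -0.26 ± 0.16 (SE) and the growth factor Hgf at 0.53 ± 0.26 (SE). The TGF-beta and YAP list, which holds Ccn1 and Amotl2, was at -0.12. Endothelial markers were at -0.025, with Lyve1, of sinusoidal cells, at 4.67, 2.93, 2.67 and 2.91 CPM in DMSO replicates 1 to 4 and 6.94, 4.86, 7.05 and 4.55 CPM in 3C replicates 1 to 4 and Eng at -0.15 ± 0.13 (SE). Cholangiocyte markers were at -0.12 (Krt7 0.56 ± 0.39 (SE) and Sox9 -0.26 ± 0.23 (SE)). Cell division genes were at 0.14 (Ccna2 0.69 ± 0.37 (SE) and Ccnb2 0.62 ± 0.36 (SE)).

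Glucocorticoid response genes had a median log2 fold of 0.13 (0.09 to 0.19 with each liver left out). Of the 19 tested, 4 had an unadjusted p under 0.05, all higher, beside 1.91% of all genes. They were Slc22a5, the carnitine transporter, at 0.63 ± 0.16 (SE) and with no overlap, Angptl4, a lipase inhibitor, at 0.67 ± 0.19 (SE), the transcription factor Klf9 at 0.52 ± 0.23 (SE) and the acute phase protein Lcn2 at 2.39 ± 1.08 (SE). Angptl4 is also in the PPAR alpha list and Lcn2 in the acute phase list, and Lcn2 ran from -0.25 to 2.79 with each liver left out.

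Medians of most lists of drug metabolism and housekeeping genes lay nearer to 0. The CAR and PXR list was at 0.036 (Abcc2 0.47 ± 0.21 (SE) and Ces2a -0.25 ± 0.16 (SE)) and conjugation enzymes at 0.00061 (Sult5a1 -0.88 ± 0.44 (SE) and Gstt2 0.41 ± 0.21 (SE)). The AHR list was at 0.13, with Cyp1a1 at 1.36, 0.532, 0.929 and 0.915 CPM in DMSO replicates 1 to 4 and 0.405, 0.835, 0.433 and 0.299 CPM in 3C replicates 1 to 4 and Ugt1a6b, whose exons are shared with other Ugt1a genes, at 0.21 ± 0.15 (SE). Pericentral genes were at 0.13, with Avpr1a at -0.39 ± 0.18 (SE) and Cyp2e1 at 0.39 ± 0.27 (SE). Periportal genes were at -0.053, with Cdh1, the epithelial cadherin, at 15.7, 11.5, 16 and 6.62 CPM in DMSO replicates 1 to 4 and 7.7, 5.6, 6.37 and 6.17 CPM in 3C replicates 1 to 4. Sex-biased genes were at -0.024, with the urinary protein gene Mup1 at 2.26, 2.87, 6.27 and 2.85 CPM in DMSO replicates 1 to 4 and 0.861, 0.933, 0.927 and 2.7 CPM in 3C replicates 1 to 4. Complement and coagulation genes were at 0.032 (C6 -0.54 ± 0.23 (SE) and Fgb 0.21 ± 0.15 (SE)). Respiratory chain subunits were at -0.021 (Cox5b -0.2 ± 0.13 (SE) and Atp5o -0.21 ± 0.12 (SE)), cytosolic ribosomal proteins at 0.06 (Rpl3 0.15 ± 0.13 (SE) and Rpl38 0.15 ± 0.15 (SE)) and lysosomal and autophagy genes at -0.0059 (Map1lc3b 0.25 ± 0.13 (SE) and Ulk1 0.35 ± 0.24 (SE)). Hepatocyte markers were at -0.022 and the red cell gene Alas2 at 0.15 ± 0.24 (SE).

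With the clock score in the fit as a covariate, 0 genes passed the adjusted threshold. Without 3C replicate 1 the median kept its sign in 35 of the 48 lists, age lists included. The clock list itself went from 0.28 to -0.008. Among its genes, Dbp had a log2 fold of 4.6 ± 1.7 (SE) over all livers and -1.63 without 3C replicate 1, and Per3 1.84 ± 0.85 (SE) and -0.26.

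The old kidney of 3C and DMSO mice was set beside the liver for the same lists. Of 14974 kidney genes tested, 0 passed the adjusted threshold and 1786 had an unadjusted p under 0.05 (11.9%). T and NK markers had a median of -0.76 in kidney and -0.87 in liver, but the kidney groups overlapped in the summed level. It was 33.9, 47.2, 82.2 and 41.4 CPM in kidney DMSO replicates 1 to 4, with replicate 3 far above the others, and 38.1, 33.2, 24.1 and 29 CPM in 3C replicates 1 to 4. MHC class II genes had a median of -0.52 in kidney and -0.53 in liver, and here the kidney sums did not overlap (1642 to 2040 CPM with DMSO, 1140 to 1564 CPM with 3C) while the liver groups did. Heat shock proteins were at 0.29 and 0.23, and PPAR alpha targets at 0.21 and 0.24. Cholesterol synthesis was at -0.21 in kidney, where 22 of 25 were below 0, and at 0.28 in liver. Srebf1 had a log2 fold of -0.64 ± 0.18 (SE) in kidney and Ppara 0.53 ± 0.13 (SE), beside -0.68 and 0.68 in liver. Kidney 3C replicate 1, whose clock genes stood apart, was the extreme in both genes. Its Srebf1 was at 54.5 CPM (other 3C kidneys 85.3 to 106.9) and its Ppara at 183.5 CPM (117.9 to 144.1). No kidney fit left it out.

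An interaction term compared the response of liver with that of kidney in 15526 genes. An adjusted p under 0.05 was found for 0 genes (0%), and an unadjusted p under 0.05 for 554 (3.57%). Of the 25 cholesterol genes 12 were among the latter. Foxp2 was higher in every 3C liver and lower in every 3C kidney, at 1.25, 1.76, 1.3 and 1.61 CPM with DMSO and 0.593, 0.765, 1.13 and 0.847 CPM with 3C in kidney, with an interaction of 1.64 ± 0.33 (SE) and an edgeR adjusted p of 0.9999.

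**Figure D5:**
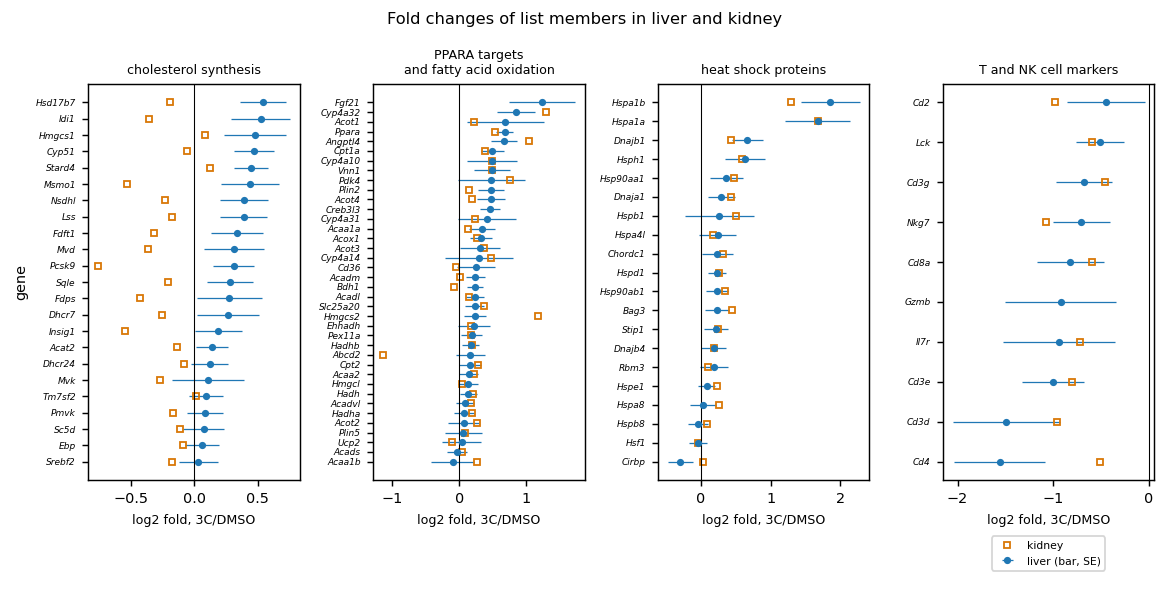
Log2 fold change (3C over DMSO, x axis) of the members (y axis) of 4 gene lists in old liver (filled, bars for SE) and old kidney (open squares, without bars). Of the cholesterol genes plotted, all 23 lay above 0 in liver and 20 below 0 in kidney, and the 10 T and NK markers that passed the filter lay below 0 in liver.

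The age comparison of untreated livers (23 to 25 against 2.5 months) gave 212 genes higher and 55 lower with age by edgeR (an adjusted p of less than 0.05, with a fold change of more than 2). The study's methods used DESeq2 with such thresholds, so these genes are not its own set. Of the 212, 209 were tested here, and 139 had a log2 fold below 0 with 3C, with a median of -0.15 against -0.0014 for all genes. The median was -0.32 to -0.088 with each liver left out, and -0.088 without 3C replicate 1. Of the 55 lower with age, 47 were tested, 24 were above 0, and the median was 0.0042. It went to -0.18 without 3C replicate 1. In the 209 genes, 6 were higher and 6 lower at an unadjusted p under 0.05, beside 1.91% and 1.43% of all genes.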

How the data were processed

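RNA-seq gene counts of 8 old livers, 4 with DMSO and 4 with 3C, were analysed, with 8 old kidneys and 8 untreated livers beside them. Per the labels and the study's methods, the authors used Trimmomatic 0.39 for trimming, HISAT2 2.2.1 for alignment to the mm10 genome, and HTSeq 0.12.4, run without strand, to count reads. The deposited values are whole-number counts for 24984 genes, not normalized. Tallies of reads outside genes were left out of library sizes. Genes that overlap on opposite strands, and near-identical copies, are uncertain in such counts.

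Each comparison was fitted alone (liver and kidney together for their interaction) in edgeR 4.0.16 (R 4.3.3) by the quasi-likelihood F test (two-sided, Benjamini-Hochberg adjustment), after TMM scaling and a filter on low counts (filterByExpr, min.count 10). A call needed an adjusted p under 0.05, and the study's fold above 2 or below 0.5 was added. The study normalized with DESeq2, which was run as an alternative (1.42.0), with limma 3.58.1, RLE scaling, other filters, covariates, a replicate block and each liver left out. The scripts were tested on simulated data. Clock score was the mean log2 CPM (prior count 2) of Arntl, Npas2, Clock, Nfil3 and Cry1 minus that of Dbp, Tef, Hlf, Per2, Per3, Nr1d2 and Ciart.

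The members, the 46 gene lists and the tests were chosen with earlier results of these data known. Named genes were those past the adjusted threshold in every fit (none), then the 20 with the smallest p apart from Gm and Rik names, all clock genes, and the 2 with the smallest p in each other list. Some genes that this rule names are not reported here. Other genes named were chosen after their values were seen. Gene positions are from RefSeq for GRCm38.p6, the mm10 build.

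Counts ran from 17.0 to 20.4 M per liver. The 12 pairs of replicates within groups differed well beyond sampling noise (chi-square per degree of freedom of at least 20.1), so each was used as 1 replicate. Whether replicates were separate mice is not stated, and p-values measure the spread between these samples. The ATAC-seq, fibroblast and untreated kidney files of the series were not used here.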

Additional observations from a re-analysis of the deposited data

Results flagged for a closer look

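Within groups of 4 livers, a liver was singled out where its gap to the nearest other exceeded the share of the group's range that Dixon's 95% critical value sets. The rule was applied to log2 CPM (prior count 2) of genes, to log2 of summed levels and to library values as they stood. The values printed below are CPM unless marked. In 320 groups looked at, chance alone gives about 1 in 20.

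In 3C replicate 1 this was so for the clock score at -4.14 (log2, others 2.05 to 2.67), and for Arntl at 1.27 CPM, Npas2 at 0.354 CPM, Dbp at 134 CPM, Tef at 282 CPM and Nfil3 at 19.8 CPM. In 3C replicate 2 it was so for Tenm3 at 36.2 CPM (others 38.2 to 38.4) and Igtp at 91.5 CPM (others 55.8 to 58.1). In 3C replicate 3 it was so for Hykk at 92.6 CPM, Mzb1 at 0.371 CPM and the summed inflammation genes named by the study at 119 CPM (others 226 to 252). In 3C replicate 4 it was so for Cd4 at 0.12 CPM (others 0.456 to 0.556) and Mup1 at 2.70 CPM (others 0.861 to 0.933).

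Among DMSO livers, replicate 1 was apart in Tenm3 at 24.9 CPM, Cry2 at 26.8 CPM, Lyve1 at 4.67 CPM, Krt7 at 0.753 CPM, Alas2 at 8.34 CPM and the summed glucocorticoid response genes at 5776 CPM (others 7768 to 8256). Replicate 2 was apart in Cd79a at 1.06 CPM (others 4.02 to 4.18). Replicate 3 was apart in Ppara at 119.8 CPM (others 136 to 139), N4bp2 at 3.37 CPM, Sox9 at 3.08 CPM, Cela1 at 17.6 CPM, Gdf15 at 21.4 CPM and the summed pancreatic acinar markers at 17.9 CPM. Replicate 4 was apart in Foxp2 at 2.69 CPM and Saa1 at 325 CPM.

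In Foxp2 (log2 fold 0.85 in liver) every 3C liver was above, and every 3C kidney below, the DMSO samples of its tissue. The edgeR interaction had an adjusted p of 0.9999.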

How the results depend on the processing

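The count of genes called by edgeR was 0 in each direction under every alternative with another scaling, filter or covariate, under robust estimation and under limma, and with each liver left out. DESeq2 called 4 higher and 2 lower genes by adjusted p, and 2 higher genes with a fold over 2. The interaction of liver and kidney gave 0 genes higher, and 0 to 1 lower with a liver left out (Cdh1, without DMSO replicate 4). Whether shared numbers pair the livers was not tested. Of 4 same-numbered pairs, 2 correlated above 0.1 (0.155, 0.0954, 0.221 and -0.115). Of 4 livers, 3 correlated best with their own number. With the replicate block, 0 genes were called and 490 had an unadjusted p under 0.05, against 436 without it.

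For 109 named genes and 18 alternatives, 1896 of 1957 values kept direction and side of the threshold, 6 passed it under DESeq2 and 55 turned. Of those that turned, 39 belonged to 13 of the 17 clock genes with a fit (Ciart did not pass the low-count filter) and 16 to 7 other genes. The clock genes are given with the range over livers left out in turn, then the values under other alternatives that turned. Without both replicates 1, Arntl (-0.33 to 0.26) was at 0.38, Npas2 (-0.63 to 0.12) 0.298, Per1 (-0.57 to 0.55) -0.402, Per3 (-0.26 to 2.19) -0.195, Cry1 (-1.03 to -0.037) 0.204, Cry2 (-0.018 to 0.43) -0.062, Nr1d1 (-0.25 to 1.34) -0.63, Nr1d2 (0.25 to 1.42) -0.024, Dbp (-1.63 to 5.45) -1.77, Tef (-0.31 to 1.28) -0.29 and Nfil3 (-0.26 to 0.31) 0.29. With the clock score, Per1 was at -0.44, Per2 (-0.37 to 0.78) -0.28, Dbp -0.83, Tef -0.093 and Nfil3 0.16. By limma, Per1 was at -0.42, Per2 -0.33, Cry2 -0.0043, Dbp -0.41 and Nfil3 0.14. With the replicate block, Per1 was at -0.0042 and Clock (-0.19 to 0.22) at -0.033. The other genes that turned were Hp (-0.18 to 1.15 with each liver left out, -0.053 by limma), Saa1 (-0.19 to 3.88, -0.42), Saa2 (-0.28 to 4.8, -0.31), Coq10b (-0.45 to 0.98, -0.24 with the clock score and -0.18 without both replicates 1), Cela1 (-0.049 to 0.32, -0.026 without both replicates 1), Alas2 (-0.0090 to 0.33) and Cyp2e1 (0.11 to 0.61, -0.030 without both replicates 1). The cause was not tested. Hp, Saa1 and Saa2 turned without 3C replicate 2, the liver with the high acute phase genes, and by limma with all livers. Arntl, Npas2, Per1, Per2, Per3, Cry2, Nr1d1, Dbp, Tef, Nfil3 and Coq10b turned without 3C replicate 1, whose clock genes stood apart. Robust estimation, limma and leaving out both replicates 1 were chosen after seeing the data. Of 864 list medians, 13 of the values under alternatives moved beyond 1 SD. With 4 livers per group, a median SE of 0.182 limits what these data can show.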
